A study of Rattus norvegicus with 38 samples.

Results

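The liver response of lipopolysaccharide-injected Sprague-Dawley rats to a combined gavage of EF and RD extracts was measured by RNA sequencing and is described here across all genes. The group LPS_EF_RD received intraperitoneal LPS, 2.5 g/kg of EF and 200 mg/kg of RD into the stomach (5 libraries, numbered 1, 2, 4, 6 and 8). The group LPS received the injection without an extract (5 libraries, numbered 1 to 5). These 10 libraries, out of 38 in the series, were chosen by their treatment labels. Further groups are used as points of comparison: LPS_EF (LPS and EF alone, 5 libraries), EF_RD (both extracts without LPS, 4 libraries) and control (neither, 5 libraries). Livers were taken on day 28 from every group, and all libraries carry the same batch label. No label states the dose or timing of LPS, the age or sex of the rats, or what the letters EF and RD stand for. The series' design text calls the samples biological replicates. The labels do not state that each library is a separate rat, so p-values measure the spread between libraries. Total counts were 19716622 to 27986310 per library in LPS_EF_RD and 23482464 to 27121056 in LPS. Hepatocyte is the labelled cell type, although the sample source is liver. Markers of Kupffer cells, endothelium and lymphocytes were all present, so the libraries read as whole liver, and fewer cells of a type cannot be told apart from less RNA per cell.

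LPS is a component of the outer membrane of Gram-negative bacteria. It is sensed by TLR4 with CD14 and LBP, and in the liver it drives the acute phase response, in which hepatocytes secrete proteins such as A2m, Hp and Lcn2 and lower many of their metabolic enzymes, cytochromes P450 among them. Bile acids are made from cholesterol in hepatocytes. Cyp7a1 carries out the rate-limiting first step of the classic pathway, and Cyp8b1, the sterol 12-alpha-hydroxylase, directs intermediates towards cholic acid. Carboxylesterases hydrolyse ester drugs and lipids, and members of the Ces2 family lie in a gene cluster in rodents. The nuclear receptors CAR, PXR and AhR induce drug-metabolising enzymes such as Cyp2b1, Cyp2b2 and Cyp1a2 when foreign compounds reach the liver.

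LPS_EF_RD library 6 and LPS library 3 stood apart from their groups. LPS_EF_RD library 6 carried the LPS label but lay between the LPS group and control on several measures. Its level of Lbp, the LPS-binding protein of the acute phase, was 255.6 CPM (counts per 1000000 of a library, with scaling between libraries), against 2136.5 to 2700.3 CPM in the other 4 LPS_EF_RD libraries, 2287.8 to 3794.9 CPM in LPS and 102.5 to 160.4 CPM in control. On the first principal component of all 38 libraries, which held 40.8% of the variance, it lay at -7.334. The other LPS_EF_RD libraries lay at 25.15 to 61.95, LPS at 28.67 to 58.57 and control at -56.69 to -11.56. The summed Kupffer cell and lymphocyte markers of LPS_EF_RD library 6 (1110.0 and 87.7 CPM) lay within the range of the LPS group. They were above every control library (at most 905.6 and 58.6 CPM). LPS library 3 held RNA of other tissues: the summed level of 19 pancreas markers was 2098.8 CPM in it, against 6.1 to 12.6 CPM in LPS_EF_RD, and its 22 skeletal muscle markers summed to 558.4 CPM, against 5.01 to 7.86 CPM in LPS_EF_RD. The other 4 LPS libraries had sums near those of LPS_EF_RD. In the groups without LPS, EF_RD library 1 held muscle RNA (5291.8 CPM) and had higher acute phase and cytokine sums (130645.6 and 209.5 CPM) than the other EF_RD libraries (at most 88676.5 and 101.3 CPM). Control library 5 held pancreas RNA (3694.9 CPM). Values without LPS_EF_RD library 6 and LPS library 3 are given beside the main results and where leaving them out moved a value most.

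**Figure D1:**
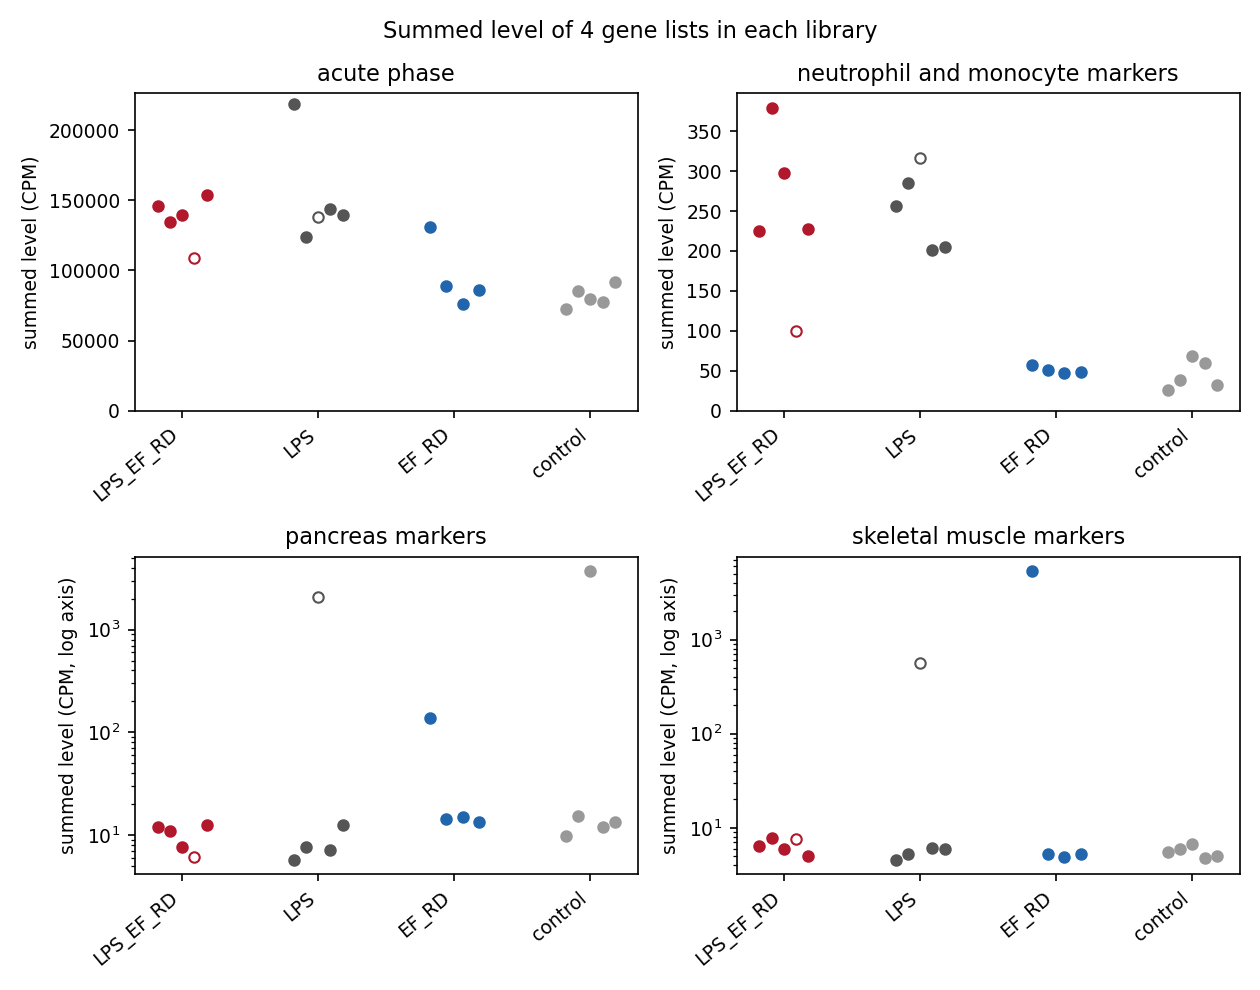
Summed levels in CPM of the acute phase, neutrophil and monocyte, pancreas and skeletal muscle lists in each library of LPS_EF_RD, LPS, EF_RD and control; the pancreas and muscle panels have log axes. Each point is 1 library; LPS_EF_RD library 6 had the lowest acute phase sum of its group (109161.0 CPM) and the lowest neutrophil sum (99.9 CPM), and LPS library 3 stood alone among the LPS-injected libraries shown for pancreas (2098.8 CPM) and muscle (558.4 CPM).

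The first question was which liver genes the combined extracts changed in LPS-injected rats. Of 14786 genes tested, 2 passed an adjusted p of 0.05, which is 0.0135% of them. Both, Cyp8b1 and Ces2j, were higher in LPS_EF_RD, and none was lower (0%). The fit was edgeR's quasi-likelihood test with Benjamini-Hochberg adjustment over all genes, which holds for every adjusted p given here unless another tool is named. At an unadjusted p of 0.05, 1130 genes (7.64%) passed, 578 higher (3.91%) and 552 lower (3.73%). All 5 LPS_EF_RD libraries lay above all 5 LPS libraries for 104 genes (0.703%) and below them for 123 (0.832%). The median log2 fold change over all genes was 0.004, and the median standard error 0.16. DESeq2, on the same counts, called 16 genes (0.108%), 10 higher and 6 lower, with Cyp8b1 and Ces2j first among them. Without LPS_EF_RD library 6 and LPS library 3, edgeR called 0 of 14736 genes, and 975 (6.62%) had an unadjusted p under 0.05, 420 higher (2.85%) and 555 lower (3.77%). DESeq2 was not run on that subset. Cyp8b1 and Ces2j kept their size there and missed the threshold. With 1 library left out, the count was 9 without LPS_EF_RD library 2, 6 without LPS_EF_RD library 4, 3 without LPS library 3, 0 without LPS library 4 and 1 in the other cases. The genes named below were therefore named with their values known.

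Cyp8b1 (chr8:130548418-130550388, minus strand, rn6, a gene without introns in this annotation) rose 2.5-fold. Its levels were 930.7, 680.9, 667.3, 687.8 and 812.9 CPM in LPS_EF_RD, against 403.0, 287.8, 281.5, 202.7 and 338.5 CPM in LPS. Every LPS_EF_RD library stood above every LPS library, and library 6, which had a low Lbp level, lay among the others. The log2 fold change was 1.32 ± 0.21 (SE, 95% interval 0.89 to 1.75, adjusted p = 0.00602, n = 5 each, edgeR). It was 1.33 ± 0.24 without LPS_EF_RD library 6 and LPS library 3 (adjusted p = 0.0673, edgeR). Leaving out 1 library at a time gave 1.20 to 1.45, and the call was lost in 1 of 10 cases, without LPS library 4. It was also lost when the fit held only LPS_EF_RD and LPS (adjusted p = 0.0838, edgeR).

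Ces2j (chr19:487723-495140, plus strand, rn6), a carboxylesterase of the Ces2 family, rose 2.95-fold. Its levels were 39.6, 20.9, 12.2, 29.1 and 29.0 CPM in LPS_EF_RD, against 9.43, 6.87, 11.9, 8.34 and 7.81 CPM in LPS. The groups did not overlap, although LPS_EF_RD library 4 lay just above the highest LPS library, which was library 3. This was a log2 fold change of 1.56 ± 0.28 (SE, 95% interval 0.98 to 2.14, adjusted p = 0.0305, edgeR), and 1.65 ± 0.32 without LPS_EF_RD library 6 and LPS library 3 (adjusted p = 0.0673, edgeR). The call was lost in 7 of 10 cases with 1 library left out, at log2 fold changes between 1.36 and 1.58, and when the fit held only LPS_EF_RD and LPS (adjusted p = 0.359, edgeR). Reads that fit several Ces2 genes could be split between them by the counting, so the member that carried the rise is uncertain.

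**Figure D2:**
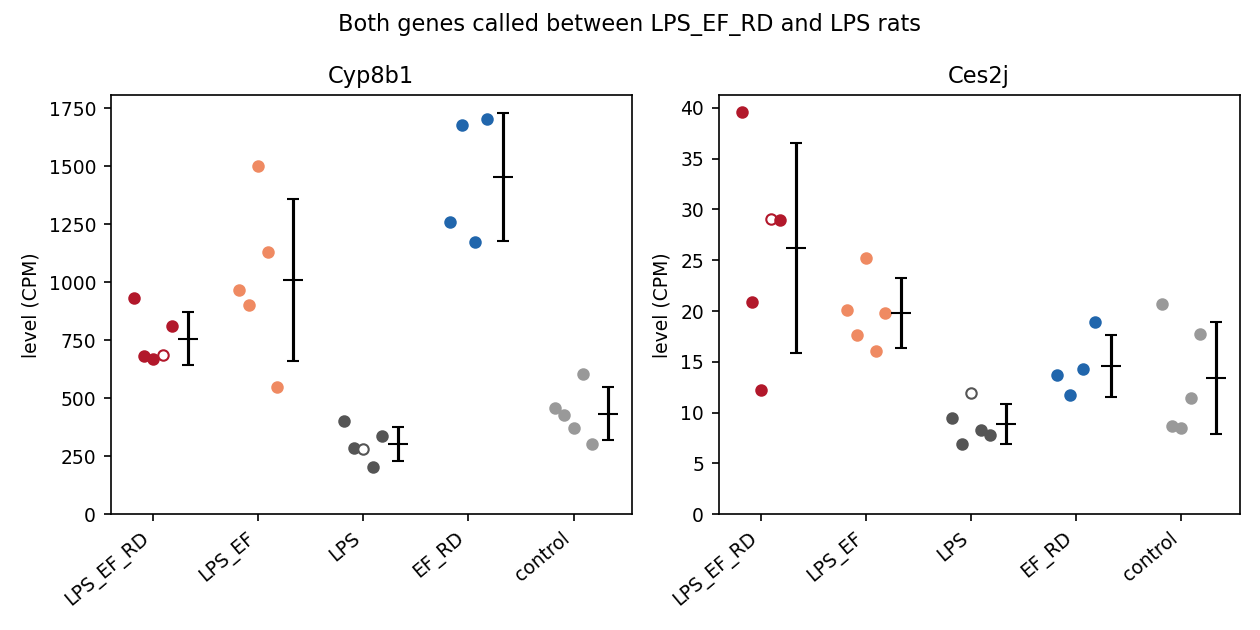
Levels of Cyp8b1 and Ces2j in CPM in each library of LPS_EF_RD, LPS_EF, LPS, EF_RD and control; points are libraries, bars are group means ± SD, and open circles mark LPS_EF_RD library 6 and LPS library 3. Cyp8b1 averaged 755.9 ± 113.9 CPM in LPS_EF_RD and 302.7 ± 74.2 CPM in LPS, and Ces2j averaged 26.2 ± 10.3 CPM in LPS_EF_RD and 8.87 ± 1.94 CPM in LPS.

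The 250 bases upstream of the annotated start of each gene are shown because these are the 2 genes that passed the test. They come from RefSeq on the build GRCr8, not the build of the counts. Cyp8b1 lies at chr8:130457593-130457842 on the minus strand, and Ces2j at chr19:304819-305068 on the plus strand, each printed 5′ to 3′ on the strand of its gene. Capitals mark matches to CAAGGNC, a core of the kind NR5A2 recognises, in Cyp8b1, and to CAAAGT, a core of the kind HNF4A recognises, in Ces2j, where it reads on the opposite strand as ACTTTG.
Cyp8b1: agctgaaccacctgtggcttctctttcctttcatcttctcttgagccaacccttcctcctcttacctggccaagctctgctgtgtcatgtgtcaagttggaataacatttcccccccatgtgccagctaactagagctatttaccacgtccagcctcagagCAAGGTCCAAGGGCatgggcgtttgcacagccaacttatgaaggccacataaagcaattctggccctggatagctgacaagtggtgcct
Ces2j: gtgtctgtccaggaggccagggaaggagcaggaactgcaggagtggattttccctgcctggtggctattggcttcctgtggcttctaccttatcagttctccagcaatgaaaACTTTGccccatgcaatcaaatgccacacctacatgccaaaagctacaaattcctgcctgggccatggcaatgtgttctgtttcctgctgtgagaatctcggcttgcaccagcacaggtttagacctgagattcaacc
The motifs were chosen with the sequences in view and searched on both strands. The Cyp8b1 window held 2 adjacent CAAGGNC matches, from -89 to -83 and from -82 to -76 relative to the start. Of 33469 rat promoter windows of the same length, 15.8% held at least 1 such match and 1.54% held 2 or more. CAAAGT, at -138 to -133 in Ces2j, occurred in 12.9% of windows, and AGGTCA, searched as well and present in 14.1%, occurred in neither. A match describes the letters and is not evidence of binding.

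The livers without LPS share no library with the main comparison, and there Cyp8b1 also rose. Its levels were 1261.1, 1678.1, 1173.5 and 1701.9 CPM in EF_RD, against 460.2, 426.8, 369.8, 605.6 and 302.5 CPM in control. Every EF_RD library lay above every control library, and the log2 fold change was 1.75 ± 0.22 (adjusted p = 2.94e-05, n = 4 and 5, edgeR). The rise after LPS differed from that without LPS by -0.43 ± 0.30 on the log2 scale (95% interval -1.04 to 0.19, adjusted p = 0.782, edgeR, for the interaction). Ces2j did not show this rise without LPS. It had 13.7, 11.7, 14.3 and 18.9 CPM in EF_RD, against 20.7, 8.7, 8.46, 11.4 and 17.7 CPM in control, a log2 fold change of 0.13 ± 0.30 (95% interval -0.47 to 0.73, adjusted p = 0.873, edgeR). The interaction for Ces2j was 1.43 ± 0.41, with a 95% interval of 0.59 to 2.26, and missed the threshold (adjusted p = 0.28, edgeR).

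What RD added to EF after LPS was asked by setting LPS_EF_RD against LPS_EF. No gene passed in edgeR (0%), 412 (2.79%) had an unadjusted p under 0.05, limma-voom called 0, and DESeq2 called 2, the adipose genes Adipoq and Plin1. Adipoq had 0, 4, 66, 6 and 1 counts in LPS_EF_RD libraries 1, 2, 4, 6 and 8, so most of its counts came from library 4. One LPS_EF library, number 7, also had a low Lbp level, 252.0 CPM. Cyp8b1 averaged 755.9 ± 113.9 CPM in LPS_EF_RD and 1009.5 ± 347.4 CPM in LPS_EF, a log2 fold change of -0.42 ± 0.21 (95% interval -0.84 to 0.00, adjusted p = 0.999, edgeR). Ces2j averaged 26.2 ± 10.3 CPM in LPS_EF_RD and 19.8 ± 3.45 CPM in LPS_EF, a log2 fold change of 0.41 ± 0.27 (95% interval -0.15 to 0.96, adjusted p = 0.999, edgeR). EF alone was also set against LPS, with the same LPS libraries as the main comparison, and 16 genes (0.108%) were called. There Cyp8b1 rose by 1.74 ± 0.21 on the log2 scale (adjusted p = 2.7e-05), and Ces2j gave 1.15 ± 0.28 (adjusted p = 0.0961, edgeR for both).

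Around Cyp8b1, the neighbouring gene Ackr2 (chr8:130526521-130543566, plus strand, rn6) lies 4851 bases away and encodes a receptor that scavenges inflammatory chemokines. Its levels were 5.44, 4.87, 2.97, 3.24 and 4.41 CPM in LPS_EF_RD, against 2.65, 1.66, 2.81, 2.61 and 2.62 CPM in LPS. The groups did not overlap, but the log2 fold change of 0.77 ± 0.20 did not pass (unadjusted p = 0.00062, adjusted p = 0.339, edgeR). Without LPS the same gene rose, with 8.73, 6.91, 5.81 and 7.33 CPM in EF_RD, against 2.05, 2.42, 2.88, 3.09 and 1.56 CPM in control (log2 fold change 1.58 ± 0.21, adjusted p = 6.82e-05, edgeR). Ackr2 and Cyp8b1 lie on opposite strands with their 3′ ends towards each other, and no strand counting is shown for these counts. Whether reads from the far more abundant Cyp8b1 were counted for Ackr2 was not tested.

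No other gene of the bile acid list passed the test. Of its 22 tested members, 1 was called higher and 0 lower. At an unadjusted p of 0.05, 7 were higher and 1 lower, where 3.91% and 3.73% of all genes were. Without LPS_EF_RD library 6 and LPS library 3 these became 4 and 2, where 2.85% and 3.77% of all genes were. The median log2 fold change was 0.19 with all libraries and 0.06 without those 2, against 0.004 and 0.009 over all genes.

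Cyp7a1 had 149.9, 71.3, 55.0, 442.7 and 96.4 CPM in LPS_EF_RD, against 94.6, 104.5, 56.0, 106.1 and 80.4 CPM in LPS. Library 6 was several times higher than the rest of its group, and the other 4 overlapped LPS on both sides. The log2 fold change of 0.88 ± 0.52 (adjusted p = 0.726) was -0.05 ± 0.51 without library 6 and LPS library 3 (adjusted p = 0.993, edgeR). Cyp27a1, which opens the alternative pathway, followed the same pattern, with 543.9 CPM in library 6, 192.4 to 287.0 CPM in the other LPS_EF_RD libraries and 185.8 to 272.1 CPM in LPS. Nr0b2, also called SHP, a repressor induced by the bile acid receptor FXR, had 13.9, 4.39, 9.11, 42.6 and 3.4 CPM in LPS_EF_RD, against 14.1, 36.1, 44.7, 21.2 and 48.1 CPM in LPS. All LPS_EF_RD libraries but number 6 lay below all LPS libraries. Its log2 fold change was -1.17 ± 0.65 (adjusted p = 0.706), and -1.95 ± 0.69 without library 6 and LPS library 3 (adjusted p = 0.611, edgeR), so it was not called in either fit.

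Slc27a5, which joins bile acids to coenzyme A, gave 0.70 ± 0.25 (adjusted p = 0.471). Acox2, which shortens the bile acid side chain, gave 0.46 ± 0.12 (adjusted p = 0.323), and 0.28 ± 0.11 without LPS_EF_RD library 6 and LPS library 3. Fgfr4, the receptor for the intestinal FGF signal that restrains Cyp7a1, gave -0.26 ± 0.09 (adjusted p = 0.441, edgeR for all). The sterol exporters Abcg8 and Abcg5 gave 1.26 ± 0.47 and 0.75 ± 0.36. The bile salt transporters Abcb11 and Slc10a1, at -0.12 ± 0.15 and 0.13 ± 0.17, were within 1 standard error of 0.

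Drug-metabolising enzymes lay above 0 for the most part without passing the test. None of 19 tested CAR and PXR targets was called by edgeR. At an unadjusted p of 0.05, 8 were higher and 0 lower, where 3.91% and 3.73% of all genes were (5 and 0 without LPS_EF_RD library 6 and LPS library 3). For 3, all LPS_EF_RD libraries lay above all LPS libraries, as for 0.703% of all genes. The list's median log2 fold change was 0.49, and 0.43 without LPS_EF_RD library 6 and LPS library 3. Of the 19, 16 were positive, and 13 without those libraries. In EF_RD against control the list's median was -0.03. The summed level of its 20 members was 5902.6 to 14315.3 CPM in LPS_EF_RD, with library 2 lowest and library 6 highest. It was 6028.6 to 8521.5 CPM in LPS. DESeq2 called 2 members, Cyp2b2 and Cyp2b1.

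Cyp2b2, a phenobarbital-inducible P450, had 22.7, 12.2, 17.8, 87.7 and 33.1 CPM in LPS_EF_RD, against 7.84, 9.85, 11.4, 7.6 and 8.57 CPM in LPS. The groups did not overlap, with library 6 far above the others. Its log2 fold change was 1.93 ± 0.39 (adjusted p = 0.0642 in edgeR and 0.000624 in DESeq2), and 1.34 ± 0.35 without library 6 and LPS library 3 (adjusted p = 0.404, edgeR). Cyp2b1 had 4.4, 1.48, 1.67, 23.4 and 9.74 CPM in LPS_EF_RD, against 0.673, 0.982, 1.44, 0.429 and 1.27 CPM in LPS (log2 fold change 3.06 ± 0.77, adjusted p = 0.323 in edgeR and 0.0152 in DESeq2). The pair are near-identical copies, and shared reads make their separate levels uncertain. The annotation of the counts places them on different chromosomes, Cyp2b2 at chr1:83103925-83119578 and Cyp2b1 at chr7:99142431-99183540 (rn6). Whether the Cyp2b1 entry is placed correctly was not tested. Ugt2b1, a glucuronosyltransferase, gave 1.26 ± 0.42 (adjusted p = 0.423), and Aldh1a1, a retinal dehydrogenase, 1.03 ± 0.49 (adjusted p = 0.643, edgeR). Without LPS_EF_RD library 6 and LPS library 3, Aldh1a1 gave 1.85 ± 0.49 (adjusted p = 0.404, edgeR).

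Cyp1a2, the main AhR-induced P450 of liver, had 653.6, 369.0, 547.5, 1466.1 and 830.0 CPM in LPS_EF_RD, against 507.6, 425.7, 316.0, 327.9 and 423.8 CPM in LPS. The groups overlapped through LPS_EF_RD library 2. The log2 fold change of 0.95 ± 0.25 (adjusted p = 0.339) was 0.51 ± 0.23 without library 6 and LPS library 3 (adjusted p = 0.741, edgeR). Without LPS it rose, with 1089.6, 776.0, 1274.2 and 843.6 CPM in EF_RD, against 314.6, 419.9, 470.3, 336.5 and 329.8 CPM in control (log2 fold change 1.41 ± 0.26, adjusted p = 0.0055, edgeR). The interaction was -0.46 ± 0.36 (95% interval -1.20 to 0.27, adjusted p = 0.8, edgeR). None of the 6 tested AhR targets was called after LPS by edgeR. At an unadjusted p of 0.05, 2 were higher, Cyp1a2 and Cyp1a1, where 3.91% of all genes were.

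Ces2j, described above, is not on the carboxylesterase and conjugation list. That list, with 22 tested members, had 0 called by edgeR and a median log2 fold change of 0.31. At an unadjusted p of 0.05, 7 were higher and 0 lower, where 3.91% and 3.73% of all genes were. Without LPS_EF_RD library 6 and LPS library 3, 1 of the 22 was higher, Ces2a, where 2.85% of all genes were. The list's median there was 0.20. Ces2a had 173.9, 93.9, 126.0, 210.6 and 250.9 CPM in LPS_EF_RD, against 48.1, 67.9, 110.7, 77.8 and 74.0 CPM in LPS. LPS library 3 was the highest of its group and the only one to reach the LPS_EF_RD range. Its log2 fold change was 1.18 ± 0.24 (adjusted p = 0.069 in edgeR and 0.00189 in DESeq2), and 1.27 ± 0.26 without library 6 and LPS library 3 (adjusted p = 0.0995, edgeR). Without LPS, Ces2a gave 0.24 ± 0.25 (adjusted p = 0.688, edgeR), and EF alone after LPS raised it by 1.14 ± 0.24 against the same LPS libraries (adjusted p = 0.0452, edgeR). Other members of the family gave 0.28 ± 0.14 (Ces2h), 0.98 ± 0.39 (Ces2i) and 1.12 ± 1.20 (Ces2e) in the main comparison, none of which passed. Ces2e varied widely within both groups, with 112 to 2929 counts in LPS_EF_RD and 83 to 2486 in LPS.

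Among the other genes that DESeq2 called higher and edgeR did not was Cyp2e1, the ethanol-inducible P450. It had 2289.7, 1636.4, 1708.3, 4026.1 and 2041.7 CPM in LPS_EF_RD, against 1006.2, 1417.2, 945.7, 1132.7 and 1351.9 CPM in LPS (log2 fold change 1.0 ± 0.24, adjusted p = 0.239 in edgeR and 0.0236 in DESeq2). The groups did not overlap, and the value without library 6 and LPS library 3 was 0.65 ± 0.24. Acsm2a, a medium-chain acyl-CoA synthetase, had 35.7, 32.3, 42.4, 35.8 and 69.9 CPM in LPS_EF_RD, against 4.75, 10.3, 23.2, 11.3 and 7.43 CPM in LPS (1.92 ± 0.48, adjusted p = 0.323 in edgeR and 0.0236 in DESeq2). These groups were also apart, and the value was 2.41 ± 0.53 without those libraries. Ubtf, a transcription factor of RNA polymerase I, had 51.6 to 56.2 CPM in LPS_EF_RD and 40.9 to 46.5 CPM in LPS, a small difference (0.27 ± 0.06) between groups that did not overlap. Akr1b7, an aldo-keto reductase, ranged from 0.0407 to 14.1 CPM within LPS_EF_RD and from 0.0339 to 0.273 CPM within LPS. The remaining one, the neurotensin receptor Ntsr1, had 0.551 to 3.91 CPM in LPS_EF_RD and 0.0 to 0.594 CPM in LPS.

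The 6 genes that DESeq2 called lower, none of them called by edgeR, were LOC102556299, Slc39a10, Slc16a11, Plpp2, Dag1 and Bzw1. LOC102556299, an uncharacterised locus, had 10.8, 13.3, 10.9, 10.1 and 8.04 CPM in LPS_EF_RD, against 22.1, 24.7, 23.1, 24.9 and 31.4 CPM in LPS. The groups were well apart, and library 6 and LPS library 3 lay among the others (log2 fold change -1.24 ± 0.25, adjusted p = 0.0642 in edgeR and 0.00179 in DESeq2). It was the 1 gene called when the fit held only these 2 groups. Slc39a10, a zinc importer, had 5.78, 10.7, 8.54, 4.83 and 7.53 CPM in LPS_EF_RD, against 17.8, 14.4, 14.3, 15.7 and 12.3 CPM in LPS (-0.99 ± 0.21, adjusted p = 0.12 in edgeR and 0.0141 in DESeq2). LPS itself raised Slc39a10 over control by 1.52 ± 0.22 on the log2 scale (adjusted p = 7.07e-06, edgeR), a comparison that shares the LPS libraries. Dag1, dystroglycan, had 90.9 to 119.8 CPM in LPS_EF_RD and 121.4 to 126.8 CPM in LPS (-0.29 ± 0.07). Slc16a11, a monocarboxylate transporter family member, overlapped between the groups, with 2.33 to 5.24 CPM in LPS_EF_RD and 4.79 to 18.6 CPM in LPS.

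No gene of the inflammatory lists passed the test in either direction. LPS against control, which shares the LPS libraries, called 5435 genes (36.8%). None of the 22 tested acute phase genes was called by edgeR between LPS_EF_RD and LPS. At an unadjusted p of 0.05, 0 were higher and 1 lower (Steap4), where 3.91% and 3.73% of all genes were. The list's median log2 fold change was -0.20, and -0.13 without LPS_EF_RD library 6 and LPS library 3. A2m, the major acute phase protein of the rat, had 87.5, 131.0, 157.1, 6.9 and 127.6 CPM in LPS_EF_RD, against 343.5, 210.4, 124.1, 156.1 and 192.0 CPM in LPS and 0.536 to 2.04 CPM in control. Library 6 lay nearest to control, and the other 4 overlapped LPS at its low end (-1.01 ± 0.71, 95% interval -2.45 to 0.43, adjusted p = 0.801, edgeR). Lbp gave -0.52 ± 0.47 (95% interval -1.48 to 0.44) and -0.22 ± 0.46 without library 6 and LPS library 3. These intervals leave room for a change of either sign.

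Lcn2, an iron-siderophore binding protein of the acute phase, had 1031.7, 2099.8, 1104.3, 0.265 and 1315.4 CPM in LPS_EF_RD, against 2059.7, 27.0, 2271.2, 26.8 and 954.7 CPM in LPS. It split both groups, since LPS libraries 2 and 4 were also low while their Lbp was not. The log2 fold change of 0.06 ± 1.31 had a 95% interval of -2.61 to 2.72, and was 0.86 ± 1.35 without LPS_EF_RD library 6 and LPS library 3. S100a8, an abundant protein of neutrophils, had 1.75 to 17.1 CPM in LPS_EF_RD and 9.47 to 16.5 CPM in LPS (-0.40 ± 0.54, and -0.11 ± 0.57 without LPS_EF_RD library 6 and LPS library 3). Of 15 tested neutrophil and monocyte markers, 0 were called by edgeR and 0 reached an unadjusted p of 0.05. Cd14, a co-receptor for LPS, had 57.4, 80.8, 87.8, 31.1 and 73.2 CPM in LPS_EF_RD, against 122.9, 106.8, 88.8, 86.4 and 131.1 CPM in LPS. The LPS_EF_RD libraries were the lower ones with 1 pair overlapping (-0.70 ± 0.24, adjusted p = 0.437, edgeR, and -0.58 ± 0.24 without library 6 and LPS library 3). Of 19 tested LPS sensing and NF-kB genes, which include Cd14, 3 were higher and 1 lower at an unadjusted p of 0.05 (edgeR). Their median log2 fold change was 0.07. Of 18 tested cytokines and adhesion molecules, 3 were higher and 0 lower, with a median of 0.19. Over all genes, 3.91% were higher and 3.73% lower. Ccl5 gave 0.84 ± 0.27 (adjusted p = 0.391) and Nfkb2 0.28 ± 0.10 (adjusted p = 0.446, edgeR for both).

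Resident cell markers were not called by edgeR either. Of 17 tested Kupffer cell and macrophage markers, 16 had positive log2 fold changes (7538 of 14786 over all genes), and the median was 0.32. At an unadjusted p of 0.05, 2 were higher (Timd4 and C1qa), where 3.91% of all genes were. Timd4, a receptor of resident macrophages, had 2.25, 1.89, 2.32, 1.75 and 1.52 CPM in LPS_EF_RD, against 1.07, 0.982, 1.11, 1.17 and 1.22 CPM in LPS, with no overlap (0.81 ± 0.32, adjusted p = 0.53, edgeR). The summed Kupffer list ran from 991.2 to 1662.0 CPM in LPS_EF_RD and from 894.6 to 1279.1 CPM in LPS. Hepatocyte markers summed to 164338.8 to 230956.7 CPM in LPS_EF_RD and 168825.9 to 195807.9 CPM in LPS, with library 6 the highest. Whether these cell proportions play a part in the results was not tested.

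The 13 tested mitochondrially encoded genes all had positive log2 fold changes, where 7538 of all 14786 genes did. Of the 13, 0 were called by edgeR and 5 were higher at an unadjusted p of 0.05, where 3.91% of all genes were. The list's median was 0.28 (0.34 without LPS_EF_RD library 6 and LPS library 3). ATP8, a subunit of ATP synthase, had 101.7, 111.4, 101.0, 113.4 and 109.6 CPM in LPS_EF_RD, against 77.6, 90.0, 87.0, 77.9 and 87.7 CPM in LPS, with no overlap (0.35 ± 0.11, adjusted p = 0.376, edgeR). ND3, a subunit of complex I, averaged 89.1 ± 10.8 CPM in LPS_EF_RD and 62.0 ± 7.13 CPM in LPS (0.52 ± 0.17, adjusted p = 0.401, edgeR). These genes share 1 transcript per strand and are not independent of each other. The nuclear genes of oxidative phosphorylation had a median of 0.01, and -0.01 without those 2 libraries.

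Mitosis genes leaned upward, with 26 of 30 positive (7538 of 14786 over all genes) and a median of 0.35, none at an unadjusted p of 0.05. Mki67, a marker of cycling cells, had 4.26, 13.4, 9.02, 2.39 and 5.97 CPM in LPS_EF_RD, against 2.18, 6.8, 6.81, 3.55 and 9.2 CPM in LPS, and the groups overlapped throughout. Without LPS_EF_RD library 6 and LPS library 3 the mitosis list's median was 0.73, with 0 called by edgeR. There 5 members were higher at an unadjusted p of 0.05, where 2.85% of all genes were. LPS_EF_RD library 2 had the highest summed mitosis level, 129.4 CPM, against 31.9 to 78.7 CPM in the other LPS_EF_RD libraries and 25.6 to 75.8 CPM in LPS. Cholesterol synthesis genes leaned the other way, with 20 of 25 negative (7248 of 14786 over all genes), a median of -0.29 and 0 at an unadjusted p of 0.05. Without those 2 libraries, 2 of 25 were positive and the median was -0.41, with 0 called by edgeR. There 3 members were lower at an unadjusted p of 0.05, where 3.77% of all genes were.

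**Figure D3:**
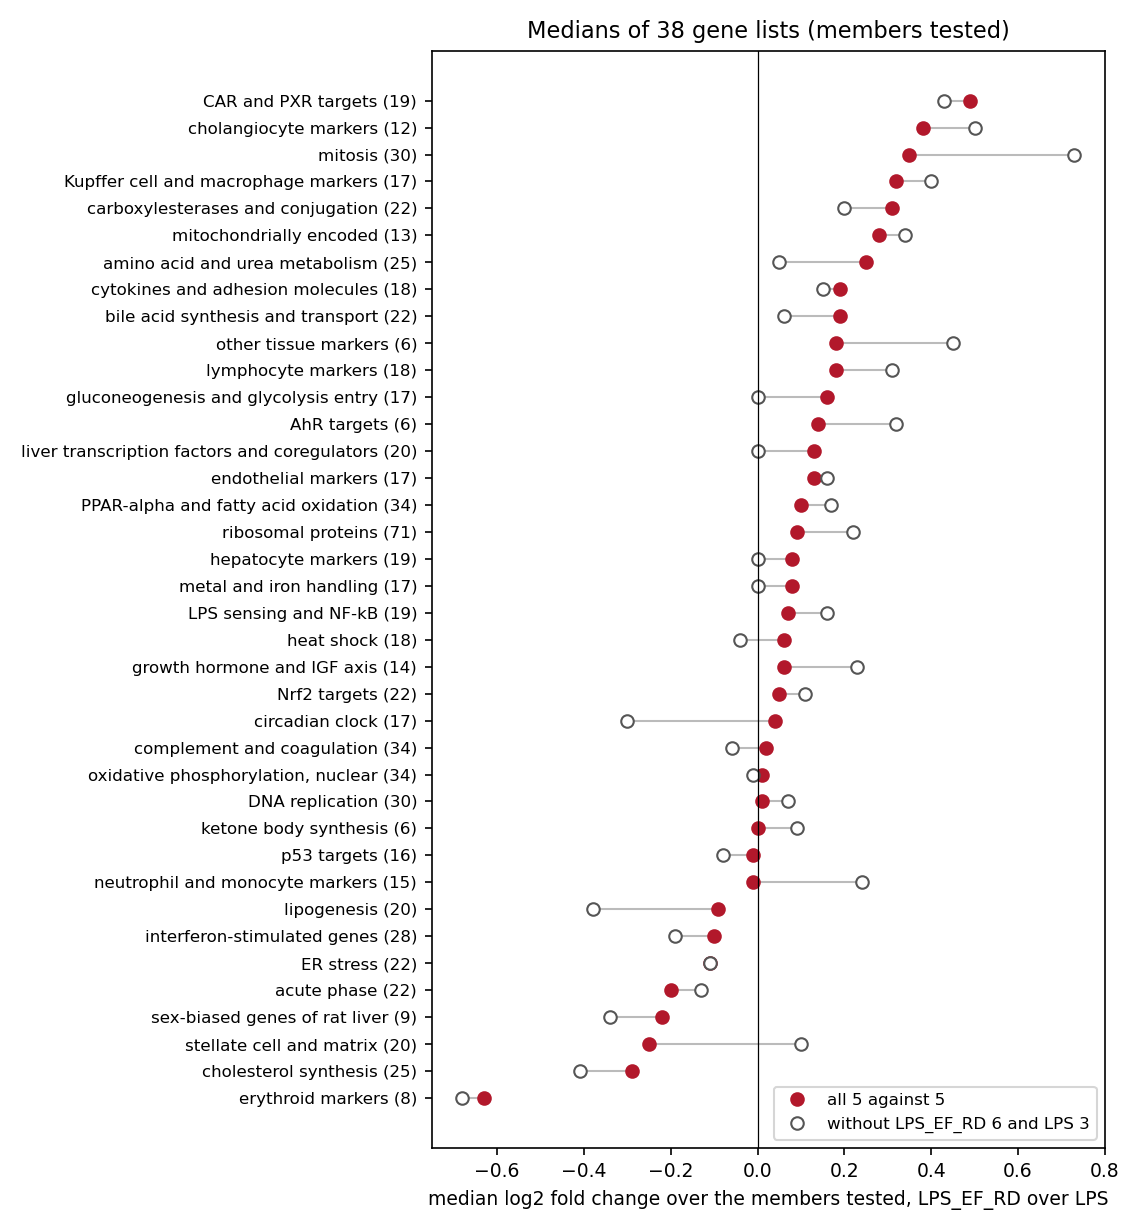
Median log2 fold change of LPS_EF_RD over LPS over the tested members of 38 gene lists, with the number tested in brackets; filled points use all 10 libraries and open points leave out LPS_EF_RD library 6 and LPS library 3. CAR and PXR targets had the highest median (0.49) and erythroid markers the lowest (-0.63), and mitosis moved to 0.73 without the 2 libraries; the pancreas and muscle lists, which LPS library 3 dominates, are left out.

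Amino acid and urea cycle genes lay nearer to 0 without LPS_EF_RD library 6 and LPS library 3. With all libraries, 5 of 25 were higher at an unadjusted p of 0.05 (Hpd, Oat, Kmo, Ass1 and Cps1), where 3.91% of all genes were. The list's median was 0.25, against 0.05 without those 2 libraries. Cps1, the first enzyme of the urea cycle, gave 0.43 ± 0.19 with all libraries and 0.05 ± 0.17 without them. Pancreas and muscle lists were set by LPS library 3. All 10 tested pancreas markers were lower at an unadjusted p of 0.05, with a median of -7.83, and the median was 0.43 without LPS_EF_RD library 6 and LPS library 3.

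The last comparison asked whether genes that EF_RD changed without LPS lay in the same direction after LPS. EF_RD against control called 225 genes (1.52%), 127 higher (0.859%) and 98 lower (0.663%). When libraries were scaled by total count instead, 234 were higher and 46 lower. Without control library 3, 4 or 7, the count was 76, 127 or 134. Without EF_RD library 1, the one with muscle RNA, 50 of 14933 were called (0.335%), 30 higher and 20 lower. Of these 50, 41 had the same sign in LPS_EF_RD against LPS (82.0%, against 58.9% of all genes tested in both), 14 of them at an unadjusted p under 0.05, while 0 of opposite sign reached it. Without LPS_EF_RD library 6 and LPS library 3, 42 of the 50 had the same sign (84.0%, against 56.7%), 16 of them at an unadjusted p under 0.05, and 1 of opposite sign reached it. Of all 225 genes, which include the muscle genes of EF_RD library 1, 151 had the same sign (67.1%, against 58.2% of all genes), made up of 70 of 127 higher and 81 of 98 lower. At an unadjusted p under 0.05, 43 of the 225 had the same sign and 10 the opposite one. Among the 50, the 30 higher genes had a median of 0.34 after LPS and the 20 lower genes a median of -0.11.

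Beside Cyp8b1, Ackr2 and Cyp1a2, the genes of equal sign included Fzd4, a Wnt receptor, at 0.46 ± 0.17 after LPS and 0.87 ± 0.17 without, here with all EF_RD libraries. They also included Cemip, a hyaluronan-degrading protein, at 0.77 ± 0.28 after LPS and 1.56 ± 0.32 without, and Ugt1a5, a glucuronosyltransferase, at 0.52 ± 0.23 after LPS and 1.06 ± 0.24 without. Lower genes included Trpm2, a calcium channel, at -0.40 ± 0.17 after LPS and -1.24 ± 0.18 without, and Serp1, a stress protein of the endoplasmic reticulum, at -0.30 ± 0.10 after LPS and -0.53 ± 0.10 without. Scd, the stearoyl-CoA desaturase, went against this, at 0.61 ± 0.62 after LPS (0.22 ± 0.69 without LPS_EF_RD library 6 and LPS library 3) and -3.81 ± 0.81 without LPS and without EF_RD library 1. Of the 50, Cyp8b1 alone passed the test after LPS.

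**Figure D4:**
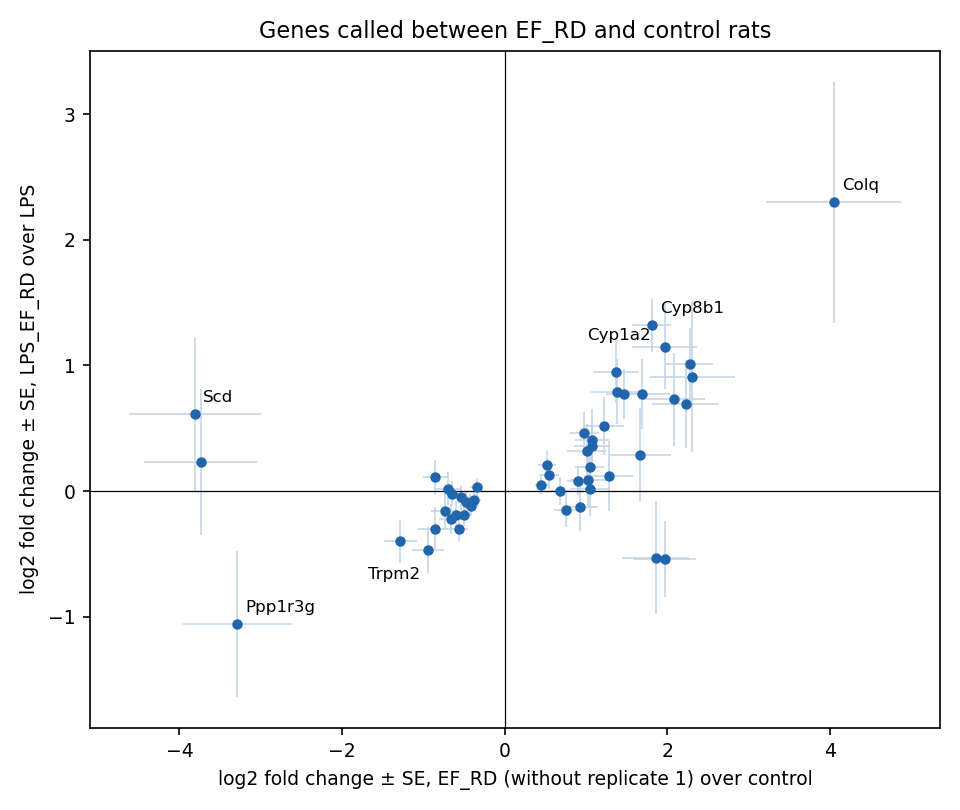
Log2 fold changes ± SE of the 50 genes called in EF_RD (without library 1) over control on the horizontal axis, and of the same genes in LPS_EF_RD over LPS on the vertical axis. Of the 50, 41 lie in the quadrants of equal sign, and Cyp8b1 is high on both axes.

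The test of the difference itself, the interaction of EF_RD and LPS, called 19 genes (0.128%). In all of them the log2 fold change with EF_RD was lower after LPS than without LPS. Of these, 16 are expressed in skeletal muscle, such as Atp2a1, the calcium pump of fast muscle, at 593.5 CPM in EF_RD library 1 and at most 0.66 CPM in the other EF_RD libraries. The other 3 were Ccdc180 (-2.52 ± 0.47, adjusted p = 0.0134), Cdc14a (-1.06 ± 0.20, adjusted p = 0.014) and Syne2 (-0.86 ± 0.16, adjusted p = 0.014), a nuclear envelope protein (edgeR for all). Syne2 averaged 39.3 CPM in LPS_EF_RD and 37.2 CPM in LPS, and 55.1 CPM in EF_RD and 28.8 CPM in control. Without EF_RD library 1, edgeR called 0 genes and 881 had an unadjusted p under 0.05, and without LPS library 3 it called 2.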

How the data were processed

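Counts of read pairs per gene were made by the authors with featureCounts 2.0.6 against an rn6 RefSeq annotation, per the file headers, which show neither strand counting nor a setting for multimapping reads. The submitters' processing notes name STAR, RSEM, featureCounts and the build mRatBN7.2, which differs from the header. The deposited TPM table was not used here. All 38 libraries (19716622 to 35835012 counts) were fitted together with 8 group means in edgeR 4.0.16 (R 4.3.3), after TMM scaling and a filter of 10 counts (15 in total) that left 14786 of 31038 genes. Tests are two-sided. A gene was called at a Benjamini-Hochberg adjusted p under 0.05. Levels are CPM (counts per 1000000) with TMM scaling, computed here. limma 3.58.1 (voom) and DESeq2 1.42.0 were alternatives, with other scalings, no filter, a replicate block, only the compared groups, and libraries left out. The fit was also run on simulated counts, with the same spread for every gene and no library unlike its group. That simulation therefore does not cover libraries such as LPS_EF_RD library 6 or LPS library 3. Gene lists (40) were taken with earlier results of these data known. The rule for named genes asked that a call survive without LPS_EF_RD library 6 and LPS library 3, and no gene met it. The called genes, those called by DESeq2 and a set of further genes were named after their values were seen. That set includes Ackr2, S100a8, Slc27a5, Cyp27a1, Acox2, Fgfr4, Abcg5, Abcg8, Abcb11, Slc10a1, Ces2h, Ces2e, Ces2i, Ugt2b1, Aldh1a1, Fzd4, Trpm2, Serp1, Ugt1a5 and Cemip. The rule further took up to 4 called genes per list, or the 2 with the lowest p, and 8 fixed genes. Depth differed widely between genes: Cyp8b1 had 5203 to 26868 counts in the libraries compared, and Ntsr1 had 0 to 113.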

Additional observations from a re-analysis of the deposited data

Results flagged for a closer look

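In 78 groups of 4 or 5 libraries tested for a single library far from the others (Dixon's test at 95%), 14 stood out. The nominal rate of about 1 in 20 holds for independent groups of genes not chosen by their values. These groups share libraries, and many are of genes named with their values known, so the 14 cannot be set against that rate. LPS_EF_RD library 6 accounted for 7: it was high for Cyp7a1 (442.7 CPM), Cyp27a1 (543.9 CPM), Nr0b2 (42.6 CPM), Cyp2b2 (87.7 CPM), Cyp2e1 (4026.1 CPM) and Alb (124348.0 CPM), and low for Lbp (255.6 CPM). LPS library 3 accounted for 4: the pancreatic lipase Cel (272.6 CPM), Atp2a1 (44.7 CPM), and the summed pancreas (2098.8 CPM) and skeletal muscle lists (558.4 CPM). The others were Acsm2a in LPS_EF_RD library 8 (69.9 CPM), Ackr2 in LPS library 2 (1.66 CPM, low) and the summed acute phase list in LPS library 1 (218713.5 CPM).

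The muscle genes Atp2a1, Tnnt3, Neb and Actn3 had the largest log2 differences between the EF_RD effect after LPS and that without LPS, at -15.40 for Atp2a1, -12.65 for Tnnt3, -11.17 for Neb and -10.73 for Actn3. In each, EF_RD library 1 held at least 99.4% of the summed CPM of the 4 EF_RD libraries, and without that library edgeR called no interaction.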

How the results depend on the processing

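The count of genes called in LPS_EF_RD against LPS was 2, and also 2 with the size factors of DESeq2, total count scaling or no filter. It was 16 in DESeq2, 1 in limma-voom (Cyp8b1), 1 with only the groups compared (LOC102556299), 0 without LPS_EF_RD library 6 and LPS library 3, and 0 to 9 with 1 library left out. Libraries of LPS_EF_RD and LPS that share a number (1, 2 and 4) had correlations of 0.0972, 0.253 and -0.154 after group means were removed. Libraries of different numbers were not correlated for comparison, so whether the numbers pair the libraries was not settled. The fit with a replicate block called 1 gene in LPS_EF_RD against LPS (Cyp8b1), 255 in EF_RD against control and 2 in the interaction. The Ces2j call was also lost with the replicate block (adjusted p = 0.0828), in limma-voom (0.0584) and with only the groups compared (0.359), where the Cyp8b1 call was lost too (0.0838). EF_RD against control gave 225 genes, 409 in DESeq2, 107 in limma-voom, 16 with only the groups compared and 50 to 276 with 1 library left out. The interaction gave 19 genes, 42 without a filter, 11 in DESeq2, 0 in limma-voom, 0 with only the groups compared, 0 without LPS_EF_RD library 6 and LPS library 3, and 0 to 40 with 1 library left out (5 without control library 3, 10 without LPS_EF_RD library 1 or control library 4, 6 or 7, 12 without LPS_EF_RD library 2 or 4, and 32, 40 and 33 without EF_RD library 2, 3 and 4). LPS_EF_RD against LPS_EF gave 0, 2 in DESeq2 and 0 to 0 with 1 library left out. The causes were not tested.

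Signs that turned in LPS_EF_RD against LPS were all of genes not called. With 1 or both of LPS_EF_RD library 6 and LPS library 3, or any other single library, left out, the log2 fold change ran from -0.31 to 0.86 for Lcn2, -0.53 to 2.08 for Noct, -1.48 to 0.03 for Ahsp, -1.91 to 0.14 for Slc4a1, -4.37 to 0.30 for Tnnt3, -9.93 to 0.16 for Cel, -8.36 to 1.86 for Cpb1, -0.96 to 4.87 for Adipoq, -0.05 to 1.10 for Cyp7a1 and -0.07 to 0.59 for Mki67. Without both, Tnnt3 was 0.30, Cpb1 1.86, Noct -0.51 and Cyp7a1 -0.05. Lcn2 was -0.51 in limma-voom, and Slc4a1 was 0.34 with the replicate block. In EF_RD against control, leaving out 1 library gave -0.14 to 8.10 for Neb and -0.02 to 0.34 for Ces2j. In 2054 of 2111 recomputed gene values of the main comparison, over 118 genes, the direction and the side of the threshold stayed. Only 2 of these genes, Cyp8b1 and Ces2j, were called to begin with, so this share says little about how stable a call was. A call was lost in 14 values, all of these 2 genes. It was gained in 25 values of 14 other genes, and 18 values changed sign.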
